A study of Mus musculus with 12 samples.

Results

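The genes described here encode the machinery that loads peptides onto MHC class II molecules, and comprise 7 members: H2-Aa, H2-Ab1 and H2-Eb1, Cd74, H2-DMa and H2-DMb1, and Ciita. They were chosen by symbol, and all 7 were present among the 22597 genes listed for postnatal day 3 (P3) and the 31053 genes listed for embryonic stage E16.5. Livers of mice carrying the Nodder (Ndr) allele of Jag1, a Notch ligand gene, were profiled with droplet-based single-cell RNA sequencing. Per the labels, 12 samples covered Jag1+/+, Jag1Ndr/+ and Jag1Ndr/Ndr animals at both stages, with 2 replicates for each of the 6 groups, all from matings of heterozygotes and without drug treatment in the labels. Livers were digested with enzymes, with TrypLE added at E16.5 only, and magnetic beads removed dead cells. Homozygous pups at P3 were recognised by jaundice, and the genotype of controls was determined later.

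The 12 deposited matrices held 9 separate libraries. At E16.5 the same values had been deposited under the names Jag1+/+ replicate 2 and Jag1Ndr/+ replicate 2, so these form 1 shared library, beside Jag1+/+ replicate 1, Jag1Ndr/+ replicate 1 and Jag1Ndr/Ndr replicates 1 and 2. At P3, library A carried both a Jag1+/+ and a Jag1Ndr/Ndr label, and library B carried labels of all genotypes, so their genotypes are unclear. Library C (barcodes of Jag1Ndr/Ndr replicate 1 that library A lacked) had only the homozygous label, and library D (Jag1Ndr/+ replicate 1) only the heterozygous one. Any pair of the 9 libraries shared at most 0.94% of the smaller library's barcodes. A library held 75745209 to 258642858 UMIs (unique molecular identifiers, counted once per captured transcript), and 13613 to 25111 cells per library were kept. The labels call each sample a separate individual, but say nothing of litters, so p-values measure the spread between these libraries.

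MHC class II molecules are pairs of an alpha and a beta chain that display peptides from the endosome to CD4+ T cells, and are typical of dendritic cells, B cells and some macrophages. The invariant chain, encoded by Cd74, holds new pairs and blocks their groove until proteases trim it to a fragment named CLIP, which the H2-DM heterodimer exchanges for peptide. Ciita encodes the transactivator that these genes depend on. It does not bind DNA itself, but docks on factors bound at the X and Y boxes of the promoters.

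The promoters of H2-Aa, H2-Eb1 and H2-DMb1 are printed because the X and Y boxes of such promoters are where the transactivator complex docks. Each run holds 250 bases before and 50 after an annotated start, from RefSeq on GRCm38.p6, at chr17:34287774-34288073 (minus strand) for H2-Aa, chr17:34305617-34305916 (plus) for H2-Eb1 and chr17:34152941-34153240 (plus) for H2-DMb1. Capitals mark an exact match to the Y box letters TGATTGG or to the X box consensus.
H2-Aa: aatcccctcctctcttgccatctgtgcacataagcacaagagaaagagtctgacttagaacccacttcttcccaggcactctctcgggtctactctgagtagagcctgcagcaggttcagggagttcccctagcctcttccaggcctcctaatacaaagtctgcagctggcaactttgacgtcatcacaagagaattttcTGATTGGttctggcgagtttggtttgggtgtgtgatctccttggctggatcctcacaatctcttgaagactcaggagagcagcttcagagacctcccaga
H2-Eb1: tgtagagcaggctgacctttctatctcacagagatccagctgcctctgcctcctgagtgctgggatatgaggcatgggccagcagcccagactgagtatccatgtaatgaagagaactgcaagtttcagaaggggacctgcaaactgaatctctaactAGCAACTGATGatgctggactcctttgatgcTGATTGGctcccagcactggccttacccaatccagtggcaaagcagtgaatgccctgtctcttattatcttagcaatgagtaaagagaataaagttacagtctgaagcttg
H2-DMb1: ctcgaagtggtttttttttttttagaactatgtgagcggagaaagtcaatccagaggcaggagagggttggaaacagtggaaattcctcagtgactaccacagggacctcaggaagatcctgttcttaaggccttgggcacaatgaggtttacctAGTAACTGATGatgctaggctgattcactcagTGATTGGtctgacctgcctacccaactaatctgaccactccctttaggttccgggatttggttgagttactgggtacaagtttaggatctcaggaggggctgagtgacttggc
The Y box began 50 bases before the start in H2-Aa, 61 in H2-Eb1 and 63 in H2-DMb1, written here as distances upstream. The X box of H2-Eb1 began 92 bases upstream and ended 20 bases before the Y box, and that of H2-DMb1 began 95 bases upstream, with 21 bases between the boxes. Searching both strands, 2568 of 32851 promoters of this length (7.82%) held the Y box, 98 (0.298%) the X box and 8 (0.0244%) both, and the motifs do not overlap each other in these runs. Promoters were matched for 4 of the 7 members. For H2-DMa the runs at 2 annotated starts, chr17:34122582-34122881 and chr17:34125268-34125567, held neither motif. Both runs lie inside the gene span given below and not at its first base, and no other start of H2-DMa was searched. A match describes the letters only.

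Positions are given on GRCm38: H2-Aa spans chr17:34282744-34287823, H2-Ab1 chr17:34257689-34269419, H2-Eb1 chr17:34305867-34316674, H2-DMa chr17:34119541-34139101, H2-DMb1 chr17:34153072-34160230 and Ciita chr16:10480059-10528418. H2-DMb1 has a near-identical neighbour, H2-DMb2, and how reads were split between them is uncertain. Levels are given as CPM, the UMIs of a gene in 1000000 UMIs summed over the cells of 1 class in 1 library. CPM is not corrected for transcript length, so levels are compared between classes and libraries, never between genes. Classes were rebuilt by clustering without the class II genes and are called X-like from fixed marker lists.

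At both stages the conventional dendritic-like class (named from markers such as Clec9a, Cst3 and Naaa, a type specialised in priming T cells) had the highest level of every member. It was a small class of 57 to 93 cells in an E16.5 library and 162 to 235 in a P3 library. At E16.5 it joined a cluster led by Batf3 (30 to 56 cells per library) and a smaller cluster led by Clec9a (19 to 37 cells). Their levels are given apart below, so the class values depend on the mix. Its dendritic marker sum, over 19 genes of which 18 were detected, was 6952 to 11977 CPM at E16.5 and 22956 to 30788 CPM at P3. In the order Jag1+/+ replicate 1, Jag1Ndr/+ replicate 1, Jag1Ndr/Ndr replicates 1 and 2 and the shared library, the level of H2-Aa, the alpha chain of the I-A molecule, was 899, 1410, 1947, 826 and 1334 CPM. In P3 libraries A, B, C and D the H2-Aa level was 5069, 6050, 6548 and 4909 CPM. Every P3 library lay above every E16.5 library. Among the E16.5 libraries, 1 of the homozygous pair was the highest and the other the lowest.

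H2-Ab1 encodes the beta chain that pairs with the H2-Aa product. In the same order its level in conventional dendritic-like cells was 588, 1080, 1453, 550 and 859 CPM at E16.5. At P3 it was 2505, 6191, 4233 and 6005 CPM, again without overlap between stages but with library A far below the others. H2-Eb1, the beta chain of the I-E molecule, was at 363, 846, 1019, 366 and 613 CPM at E16.5. Its P3 levels were 2372, 3418, 3753 and 3657 CPM. Both beta chains thus had the lowest P3 value in library A, which for H2-Aa was second lowest.

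Cd74 was at 1475, 2294, 3718, 1370 and 1996 CPM in conventional dendritic-like cells at E16.5. At P3 it was at 15444, 16036, 17294 and 9403 CPM. Library D was the lowest for Cd74, although it was the second of 4 for H2-Ab1. The H2-DMa level, the alpha chain of the peptide editor, was 244, 325, 304, 201 and 219 CPM at E16.5 and 601, 787, 677 and 727 CPM at P3. The H2-DMb1 level was 93.1, 124, 142, 76.5 and 97.1 CPM at E16.5 and 554, 685, 729 and 681 CPM at P3. Neither chain overlapped between stages. Ciita had 35.0, 24.8, 51.6, 41.5 and 71.6 CPM at E16.5 and 191, 305, 371 and 252 CPM at P3, again without overlap.

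**Figure D1:**
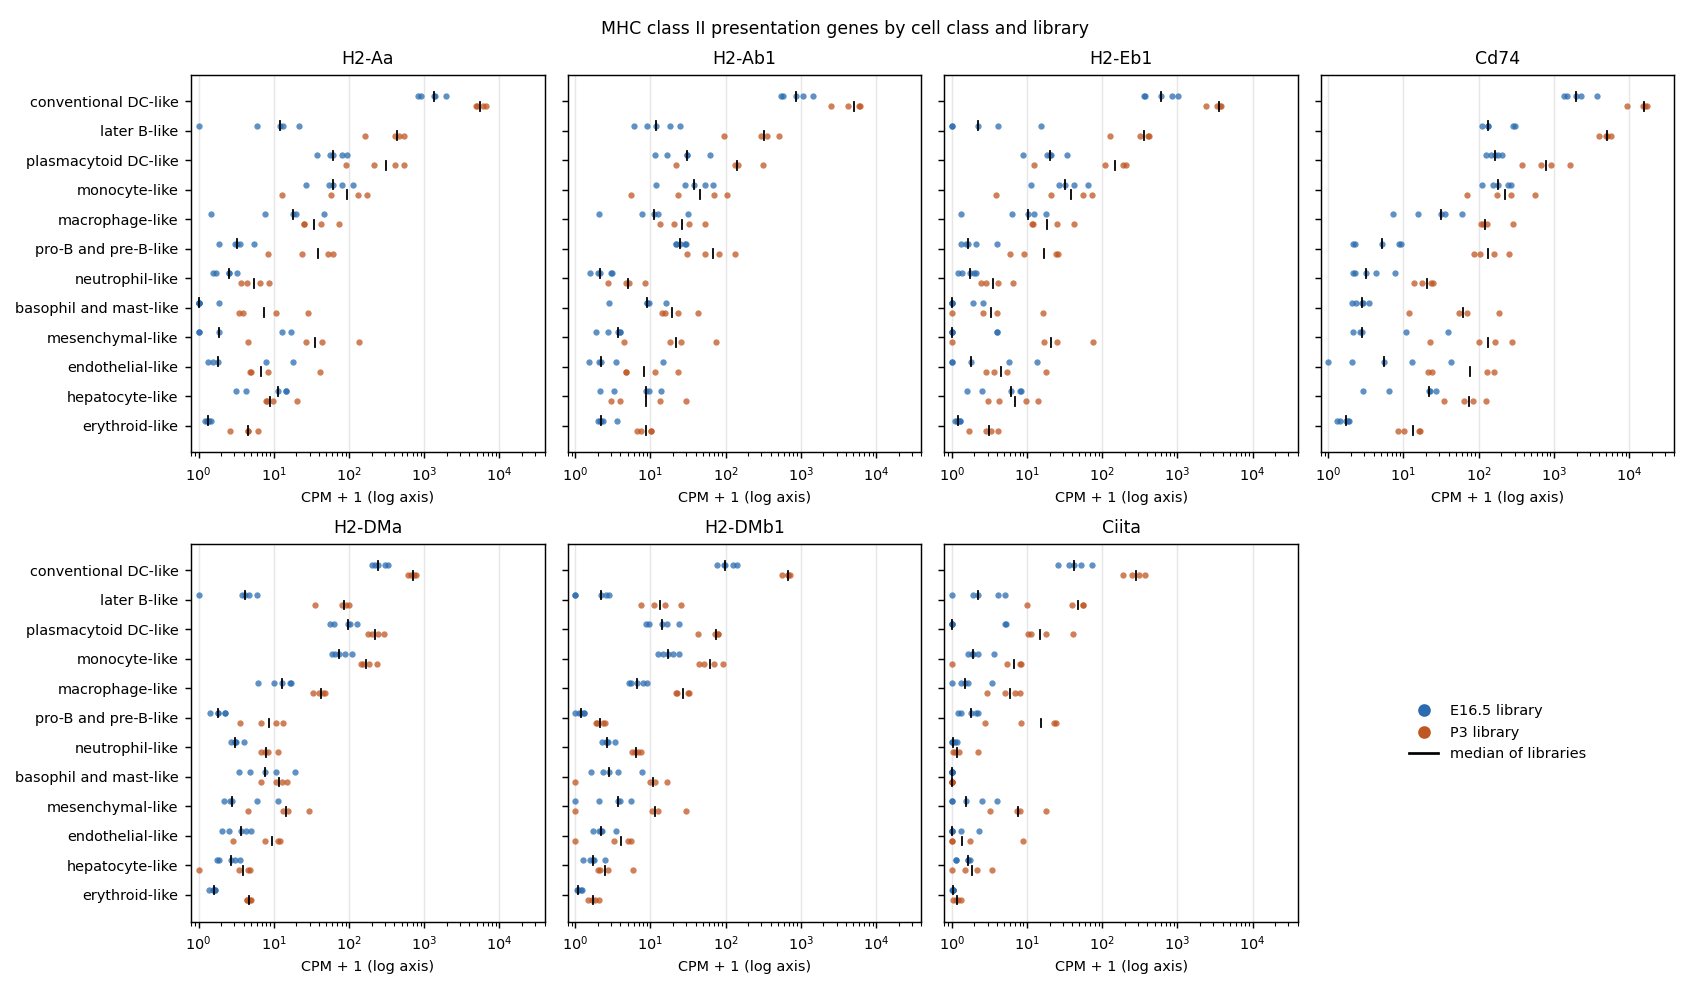
CPM + 1 of each member on a log axis for 12 cell classes (rows); each point is 1 library (blue, 5 at E16.5; orange, 4 at P3) and each tick the median of libraries. The conventional dendritic-like (DC) row lies farthest right in every panel, and Cd74 there moves from 1370 to 3718 CPM at E16.5 to 9403 to 17294 CPM at P3.

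The later B-like class (cells past the pro-B and pre-B stages, with markers such as Ms4a1 and Ly6d) had the second highest median Cd74 level among named classes at P3, while at E16.5 its levels overlapped those of other classes. Its E16.5 Cd74 levels were 284, 131, 304, 130 and 110 CPM, from 42 to 174 cells per library. At P3 they were 4894, 5791, 5149 and 4009 CPM, from 229 to 1287 cells. The E16.5 values overlapped those of monocyte-like cells (109 to 265 CPM) and plasmacytoid dendritic-like cells (125 to 200 CPM), whereas at P3 every later B-like value exceeded every value of those classes. Plasmacytoid dendritic-like cells, a type known for interferon, had 373, 680, 1648 and 911 CPM of Cd74 at P3.

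H2-Aa in later B-like cells was at 11.1, 0, 21.0, 12.2 and 5.00 CPM at E16.5, close to the limit of detection in a class of so few cells. At P3 it was at 163, 414, 542 and 462 CPM. Of the other members in later B-like cells, H2-Ab1 ran from 5.00 to 23.7 CPM at E16.5 and from 93.6 to 516 CPM at P3, H2-Eb1 from 0 to 14.6 and from 125 to 417 CPM, and H2-DMa from 0 to 5.00 and from 34.1 to 99.2 CPM. None of these ranges overlapped between stages. H2-DMb1 (0 to 1.82 CPM, then 6.58 to 24.9 CPM) and Ciita (0 to 4.07 CPM, then 9.02 to 55.1 CPM) did not pass the filter on low counts in this class and were not tested there.

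Macrophage-like cells, which in liver are mainly Kupffer cells with markers such as Clec4f and Vsig4, had little of any member at E16.5. Their Cd74 level was 6.34, 30.6, 59.6, 14.6 and 34.1 CPM at E16.5 and 106, 129, 283 and 113 CPM at P3. These UMIs sat in very few cells: at E16.5, 1 to 3 of 808 to 1126 cells per library held at least 50% of the class's Cd74 UMIs, and a single cell held up to 134. At P3, 6 to 11 of 734 to 1500 macrophage-like cells held that share. In the conventional dendritic-like class the count was 9 to 17 cells in E16.5 libraries and 50 to 67 in P3 libraries. The macrophage-like class also had a dendritic marker sum of 897 to 1253 CPM at E16.5 and 1952 to 2379 CPM at P3. The part of such cells in the macrophage-like values was not tested.

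Erythroid-like cells, which do not use class II molecules, give the background that free RNA in droplets could leave. Their Cd74 level was 0.315 to 0.889 CPM at E16.5 and 7.55 to 15.8 CPM at P3, so the background itself was higher at P3. The median ratio of Cd74 over erythroid-like cells of the same library was 3571 in conventional dendritic-like, 342 in later B-like and 41.6 in macrophage-like cells at E16.5. At P3 these ratios were 1073, 400.3 and 13.1. In neutrophil-like cells the median ratio was only 3.13 at E16.5 and 1.57 at P3.

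Shares of cells with a UMI were compared after thinning every cell to 1000 UMIs, with medians and ranges over libraries. A Cd74 UMI was then found in 52.6% (43.3 to 71.9) of conventional dendritic-like cells at E16.5 and in 92.9% (91.1 to 96.4) at P3. With doublets kept, which leaves 18 to 37 cells in this class in E16.5 libraries, the medians were 96.9% (4 libraries) and 93.1%, the reverse order. Without thinning the medians were 73.7% and 97.2%, at median depths of 10314 to 17394 UMIs per cell in E16.5 libraries and 4242 to 6646 in P3 libraries. In later B-like cells the thinned share was 8.11% (6.67 to 15.5) in E16.5 libraries and 88.0% (82.0 to 96.5) in P3 libraries, and the unthinned medians were 23.8% and 93.3%. The erythroid-like background was 0.0450% and 1.46% after thinning, and 0.422% and 6.86% without it, at 5007 to 10080 and 2749 to 5617 UMIs per cell. Monocyte-like cells stood at 8.49% and 7.40%, and macrophage-like cells at 0.371% and 5.94%, or 18.6% and 21.6%, and 1.86% and 14.4%, without thinning. The shares depend on the depth chosen: thinned to 2000 UMIs, the E16.5 medians were 14.3% in later B-like, 0.866% in macrophage-like and 0.124% in erythroid-like cells.

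The same measure in conventional dendritic-like cells was taken for other members, each compared between stages only. The setting with doublets kept, which reversed the order for Cd74, is not given for them. H2-DMa went from 28.3% of thinned cells at E16.5 to 52.6% at P3, and H2-DMb1 from 6.67% to 46.2%. Ciita went from 9.09% to 24.9%, and H2-Aa from 45.6% to 86.1%. Each of these shares was above the erythroid-like share at its stage, which for these 4 genes was at most 0.369% as a median.

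Within the conventional dendritic-like class, clusters of the same libraries had levels of Cd74 that did not overlap at E16.5. At E16.5 a cluster led by Batf3, Ctnnd2 and Id3 (30 to 56 cells per library) had 292 to 899 CPM of Cd74, and a UMI in a median of 60.0% of its cells. A cluster led by Clec9a, Cst3 and Plbd1 (19 to 37 cells) had 4122 to 7916 CPM and a UMI in every cell. For H2-Aa the clusters had 160 to 500 CPM and 2527 to 4101 CPM, again far apart, whereas for H2-DMa they had 147 to 254 CPM and 292 to 467 CPM. Ciita followed the same order, at 7.77 to 29.2 CPM and 44.8 to 159 CPM. At P3 a cluster led by Cst3, Plbd1 and Clec9a (81 to 124 cells) had 13992 to 24088 CPM of Cd74, a cluster led by Cd209a, Ly6a and Batf3 (38 to 105 cells) 3829 to 9119 CPM, and a cluster led by Rab7b and Clec9a (8 to 26 cells) 9174 to 13181 CPM.

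Later B-like cells at E16.5 were a single cluster, led by Iglc1 and Ly6d, with 110 to 304 CPM of Cd74. At P3 the cluster led by Ms4a1 and Bank1 had 7672 to 12106 CPM of Cd74. The cluster led by Srpk3 and Cyth4 had 2653 to 7142 CPM, that led by Shisa8 and Wnt10a 2281 to 4007 CPM, and that led by Nfkbid and Shisa8 3455 to 4683 CPM. All of these P3 clusters exceeded the E16.5 cluster in every library. Among monocyte-like cells at E16.5, the cluster led by Hpgd and S100a4 had 185 to 514 CPM of Cd74, while the clusters led by Fn1 (0 to 63.3 CPM) and Vcan (0 to 7.33 CPM) had little. At P3 the class lay in other clusters: that led by Id3 and Hist1h2ap had 208 to 1105 CPM of Cd74, that led by Ly6c1 and Lgals3 28.3 to 154 CPM and that led by Hist1h2ap and Hist1h2ae 6.54 to 20.8 CPM (3 libraries).

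**Figure D2:**
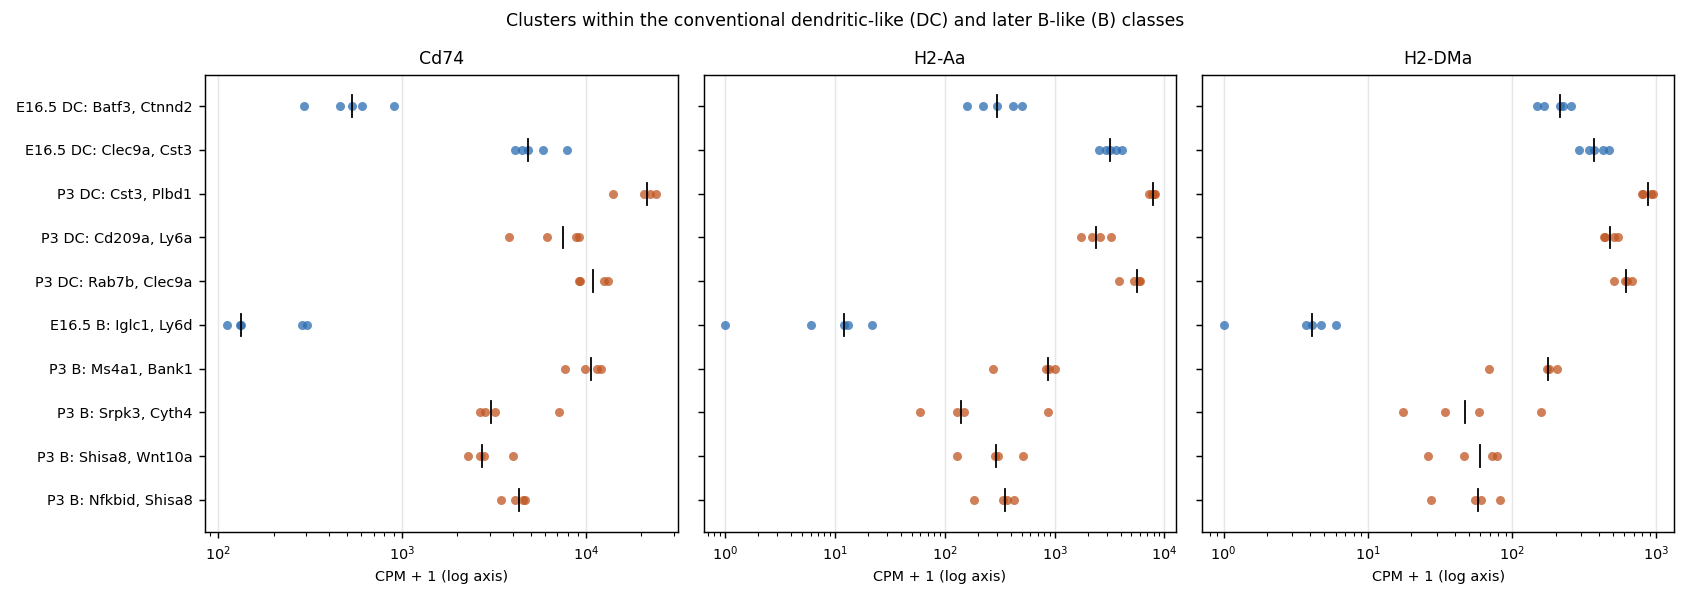
CPM + 1 on log axes of Cd74, H2-Aa and H2-DMa in the clusters (rows, named by 2 leading genes) of the conventional dendritic-like (DC) and later B-like (B) classes; points are libraries (blue E16.5, orange P3) and ticks are medians. The Clec9a-led cluster at E16.5 (4122 to 7916 CPM of Cd74) lies apart from the Batf3-led cluster of the same libraries (292 to 899 CPM).

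Most class II transcripts of these livers came from a small share of cells. Conventional dendritic-like cells were a median of 0.356% of kept cells at E16.5 and gave 59.0% (51.0 to 66.4) of all Cd74 UMIs and 70.9% of H2-Aa UMIs. At P3 they were 1.18% of cells and gave 38.2% (30.7 to 50.8) of Cd74 and 65.1% of H2-Aa UMIs. Later B-like cells gave 2.31% of Cd74 UMIs at E16.5 and 37.9% (19.0 to 48.3) at P3, where they were 6.27% of cells. H2-DMa was spread more widely: conventional dendritic-like cells gave 26.4% of its UMIs at E16.5 and monocyte-like cells 19.4%.

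**Figure D3:**
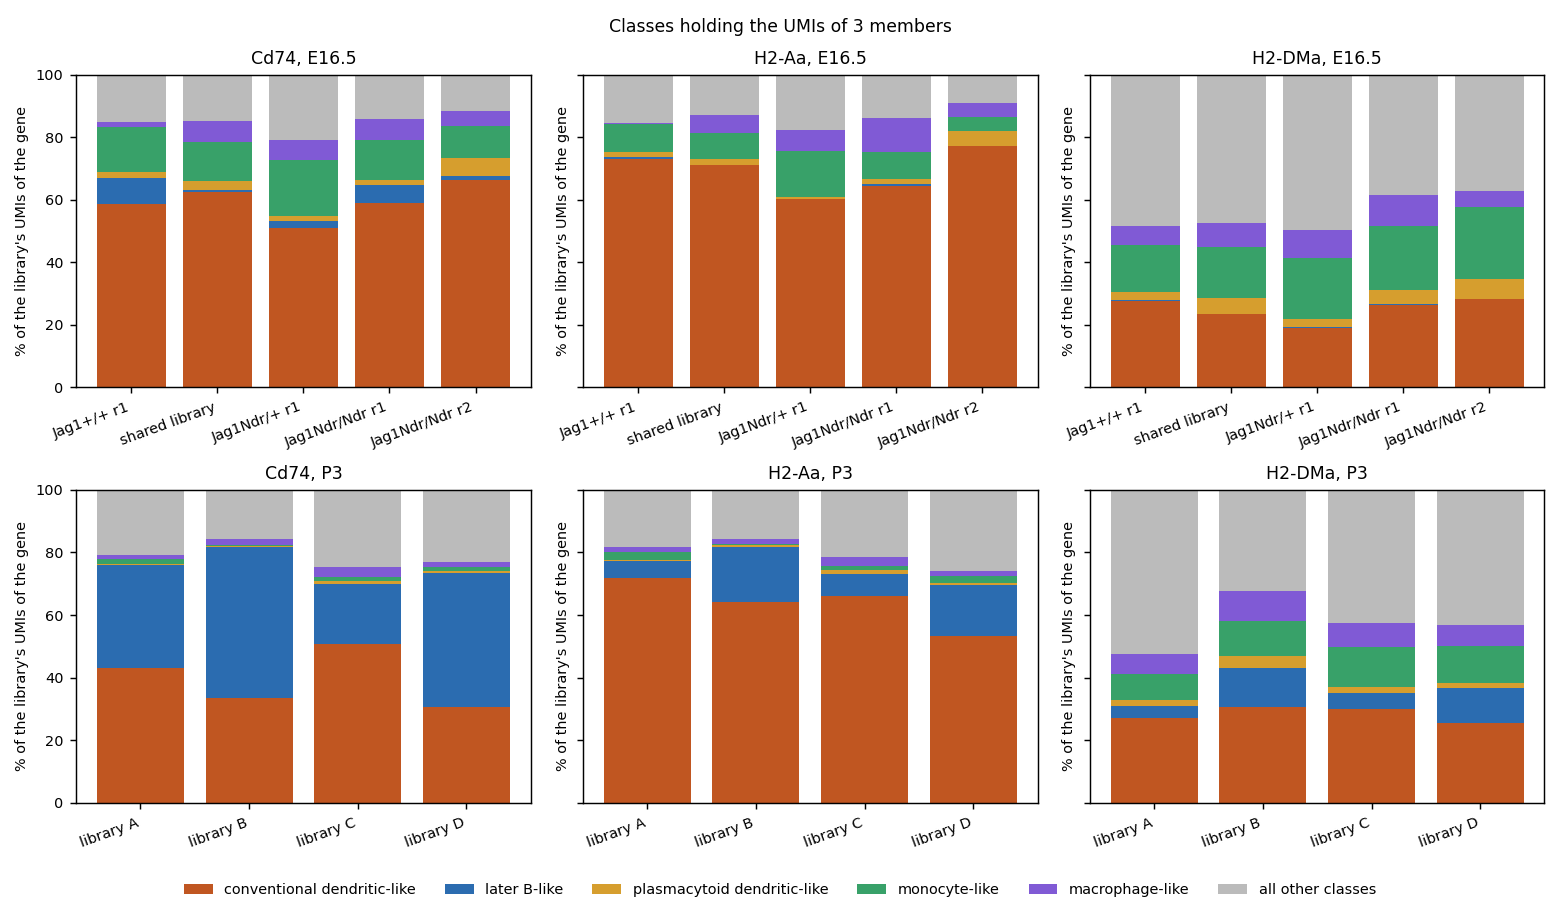
Stacked bars of the percentage of a library's UMIs of Cd74, H2-Aa or H2-DMa that fell in each class, per library (5 at E16.5, upper panels; 4 at P3, lower panels). The later B-like segment of Cd74 grows from a median of 2.31% at E16.5 to 37.9% at P3.

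H2-Ab1 was also found in pro-B and pre-B-like cells at E16.5. Its level there was 23.5, 28.3, 29.2, 20.8 and 21.2 CPM, above the 1.02 to 2.61 CPM of erythroid-like cells in every library, with a median ratio of 18.5. The Cd74 level in these cells was 1.14 to 8.33 CPM, a median of 4.74 times that of erythroid-like cells. After thinning, 2.00% (1.48 to 2.71) of these cells had an H2-Ab1 UMI, against 0.0998% of erythroid-like cells (4.26% against 0.191% when thinned to 2000 UMIs), and unthinned 17.1% against 0.958%. Between 82 and 209 cells per library had an H2-Ab1 UMI, and 3.03% to 4.88% of them also had a Cd74 UMI. So low an overlap was not particular to this class. In the same libraries it was 0% to 5.00% for erythroid-like cells and 1.32% to 3.64% for B-lineage cells of unnamed clusters. Those unnamed cells had H2-Ab1 too, at a median of 12.1 times the erythroid-like level. In P3 libraries the overlap was 7.92% to 16.4% for erythroid-like cells and 48.1% to 78.7% for unnamed B-lineage cells. For pro-B and pre-B-like cells it was then 18.8% to 47.3%. The cycling cluster led by Pimreg and Cenpf had 26.0 to 49.3 CPM of H2-Ab1, and the cluster led by Ung and Cdca7 14.8 to 42.1 CPM. The other clusters were lower by median, at 9.86 to 24.3 CPM (led by Myl4), 0 to 22.5 CPM (led by 4930597A21Rik) and 0 to 20.4 CPM (led by Speer2), the latter pair with values for 4 libraries.

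The first comparison asked how the members differed between P3 and E16.5 within each class, with edgeR's quasi-likelihood test over all pairs of class and gene. Its log2 fold changes are scaled by TMM factors, which set the bulk of genes in a class to no change, so they can be smaller than ratios of CPM. Of 68 pairs of member and class tested, 52 were higher at P3 and none was lower (adjusted p under 0.05). Over all genes, 41.8% of pairs were called, and 20.9% were higher. Of the 68 pairs, 20 passed the filter on low counts only through the P3 libraries, which all but fixes their direction: of 6391 such pairs over all genes, 3330 were called higher and 4 lower. Another 8 passed only through libraries of both stages together. Of the 40 that passed in the E16.5 libraries themselves, 29 were higher and none lower, where 20.0% of all such pairs were higher. These pairs share the same libraries and the same few genes, so they do not count as separate pieces of support. Among those called are pairs in erythroid-like cells, which give the background, and in neutrophil-like cells. Stage cannot be told apart from the digestion, which had TrypLE at E16.5 only, or from the software version that wrote the matrices. With only libraries C and D at P3, an alternative chosen after seeing the data, 52 of 75 pairs were called, where 30.4% of all pairs were.

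In conventional dendritic-like cells all 7 members rose, where 20.1% of all genes did. The log2 fold change of Cd74 was 2.56 (SE 0.28, adjusted p = 2.83e-06), that of H2-Aa 1.96 (SE 0.24, adjusted p = 8.00e-06), that of H2-Ab1 2.20 (SE 0.31) and that of H2-Eb1 2.17 (SE 0.29). H2-DMb1 rose by 2.47 (SE 0.19, adjusted p = 5.21e-08) and H2-DMa by 1.26 (SE 0.19, adjusted p = 5.30e-05), so the chains of the editor moved by different amounts. Ciita rose by 2.48 (SE 0.23, adjusted p = 4.33e-07). Restricted, after seeing the data, to clusters with Clec9a among their leading genes, the changes were smaller: 1.39 for Cd74, 0.78 for H2-Aa, 0.98 for H2-Ab1, 0.91 for H2-Eb1, 0.74 for H2-DMa, 1.58 for H2-DMb1 and 1.47 for Ciita, all still called. Keeping doublets moved these values further, but B and myeloid cells were then clustered and named again, so the class itself changed. With doublets kept the class held 18 to 37 cells in an E16.5 library, under the minimum of 20 cells in 1 of them, and a test with at least 10 cells, added after seeing the data, gave 1.00 for Cd74, 1.25 for H2-DMb1, 1.06 for Ciita and 0.47 for H2-DMa, all called. The changes of H2-Aa (0.36, adjusted p = 0.107), H2-Ab1 (0.54, adjusted p = 0.0796) and H2-Eb1 (0.49, adjusted p = 0.0738) were then not called. The summed level of 14 erythroid markers in the class was 115169 to 167027 CPM at E16.5 and 9828 to 16960 CPM at P3, and its part in the changes was not tested.

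In later B-like cells the 5 members tested rose, against 24.6% of all genes. Of these, 4 (H2-Aa, H2-Ab1, H2-Eb1 and H2-DMa) passed the filter only through the P3 libraries, so their direction is no support, and Cd74 passed at both stages. H2-Eb1 rose by 4.91 (SE 0.49, adjusted p = 3.44e-07) on the log2 scale and H2-Aa by 4.33 (SE 0.43, adjusted p = 3.34e-07). Cd74 rose by 3.91 (SE 0.31, adjusted p = 1.91e-08), H2-DMa by 3.83 (SE 0.46) and H2-Ab1 by 3.51 (SE 0.42). The sizes moved with 1 library and with the treatment of doublets: without Jag1Ndr/Ndr replicate 1 at E16.5 the change was 6.86 for H2-Eb1 and 5.11 for H2-Aa, and with doublets kept it was 7.08 for H2-Eb1, 6.67 for H2-Aa, 6.20 for Cd74 and 5.37 for H2-DMa, all called. The erythroid marker sum here was 306238 to 430769 CPM at E16.5 and 6754 to 16657 CPM at P3, and its part was not tested. In pro-B and pre-B-like cells H2-Aa and H2-Ab1 passed the filter at both stages, while Cd74, H2-Eb1, H2-DMa and Ciita passed only through the P3 libraries. These 6 rose, against 25.2% of all genes, from 1.29 (SE 0.32) for H2-Ab1 to 4.80 (SE 0.50) for Cd74, and that of Cd74 was 5.53 with doublets kept. H2-Eb1 (3.54) was at 4.22 without the shared library and at 4.23 with only C and D at P3.

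Plasmacytoid dendritic-like cells had the 6 tested members higher at P3, against 14.9% of all genes, from 1.15 (SE 0.23) for H2-DMa to 2.26 (SE 0.50) for H2-Eb1. With only libraries C and D at P3, H2-Eb1 was at 3.03, H2-Ab1 at 2.64 and H2-Aa at 2.59 there, and at Leiden resolution 0.5 H2-Ab1 was at 2.70. H2-DMb1 passed the filter there only through the P3 libraries, as Ciita did in macrophage-like cells. In plasmacytoid dendritic-like cells H2-Eb1 and H2-Ab1 passed only through libraries of both stages together. For H2-Eb1 these were 1 E16.5 and 3 P3 libraries, so its entry leaned on P3, and for H2-Ab1 they were 3 of each. Macrophage-like cells had 4 of 7 higher, against 25.5% of all genes: Cd74 (2.02, SE 0.50, adjusted p = 0.00650), H2-DMa (1.38, SE 0.31), H2-DMb1 (1.75, SE 0.25) and Ciita (2.13, SE 0.62, or 3.13 without Jag1Ndr/Ndr replicate 1 at E16.5). The chains H2-Aa (0.77, SE 0.68), H2-Ab1 (0.80, SE 0.61) and H2-Eb1 (0.85, SE 0.62) did not pass the test in macrophage-like cells. Without Jag1Ndr/Ndr replicate 1 at E16.5, H2-Ab1 passed (1.51, adjusted p = 0.0443) and H2-Aa was at 1.51 without passing, and without library C they were at 0.35 and 0.36. In monocyte-like cells 2 of 6 were higher, against 21.6% of all genes, namely H2-DMa (0.90, SE 0.21) and H2-DMb1 (1.67, SE 0.24). There Cd74 (0.23, SE 0.43), H2-Aa (0.14, SE 0.53), H2-Ab1 (-0.06, SE 0.60) and H2-Eb1 (-0.29, SE 0.59) did not pass, in a class whose clusters at each stage, given above, differed in their leading genes and in their Cd74 levels. At Leiden resolution 0.5 the call of H2-DMa was lost (0.48, adjusted p = 0.0964) and the change of H2-DMb1 was 0.84, still called.

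Classes outside the dendritic, B, macrophage and monocyte lineages also had calls. The 6 tested members were higher at P3 in erythroid-like cells (log2 changes of 1.49 to 3.39, where 26.1% of all genes were higher) and in neutrophil-like cells (1.27 to 2.44, where 25.1% were), though H2-DMb1 in the former and H2-Eb1 in the latter passed the filter only through the P3 libraries. Cd74 was higher in 12 of the 14 classes where it was tested, and in 5 of these 12 (basophil and mast-like, endothelial-like, megakaryocyte-like, mesenchymal-like, and pro-B and pre-B-like cells) it passed the filter only through the P3 libraries. The P3 Cd74 level was 7.55 to 15.8 CPM in erythroid-like and 12.7 to 23.5 CPM in neutrophil-like cells, but 21.2 to 279 CPM in mesenchymal-like and 20.0 to 157 CPM in endothelial-like cells, which overlaps the macrophage-like range. Few cells of the latter 2 classes held member UMIs. Thinned to 1000 UMIs, the median P3 cell of both classes had 0 in every library, while 1 endothelial-like cell had 37 and 1 mesenchymal-like cell 11. The P3 mesenchymal-like cluster was led by Ins2 and Ins1, beside Col3a1. The part of free RNA in the stage changes of these classes was not tested.

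**Figure D4:**
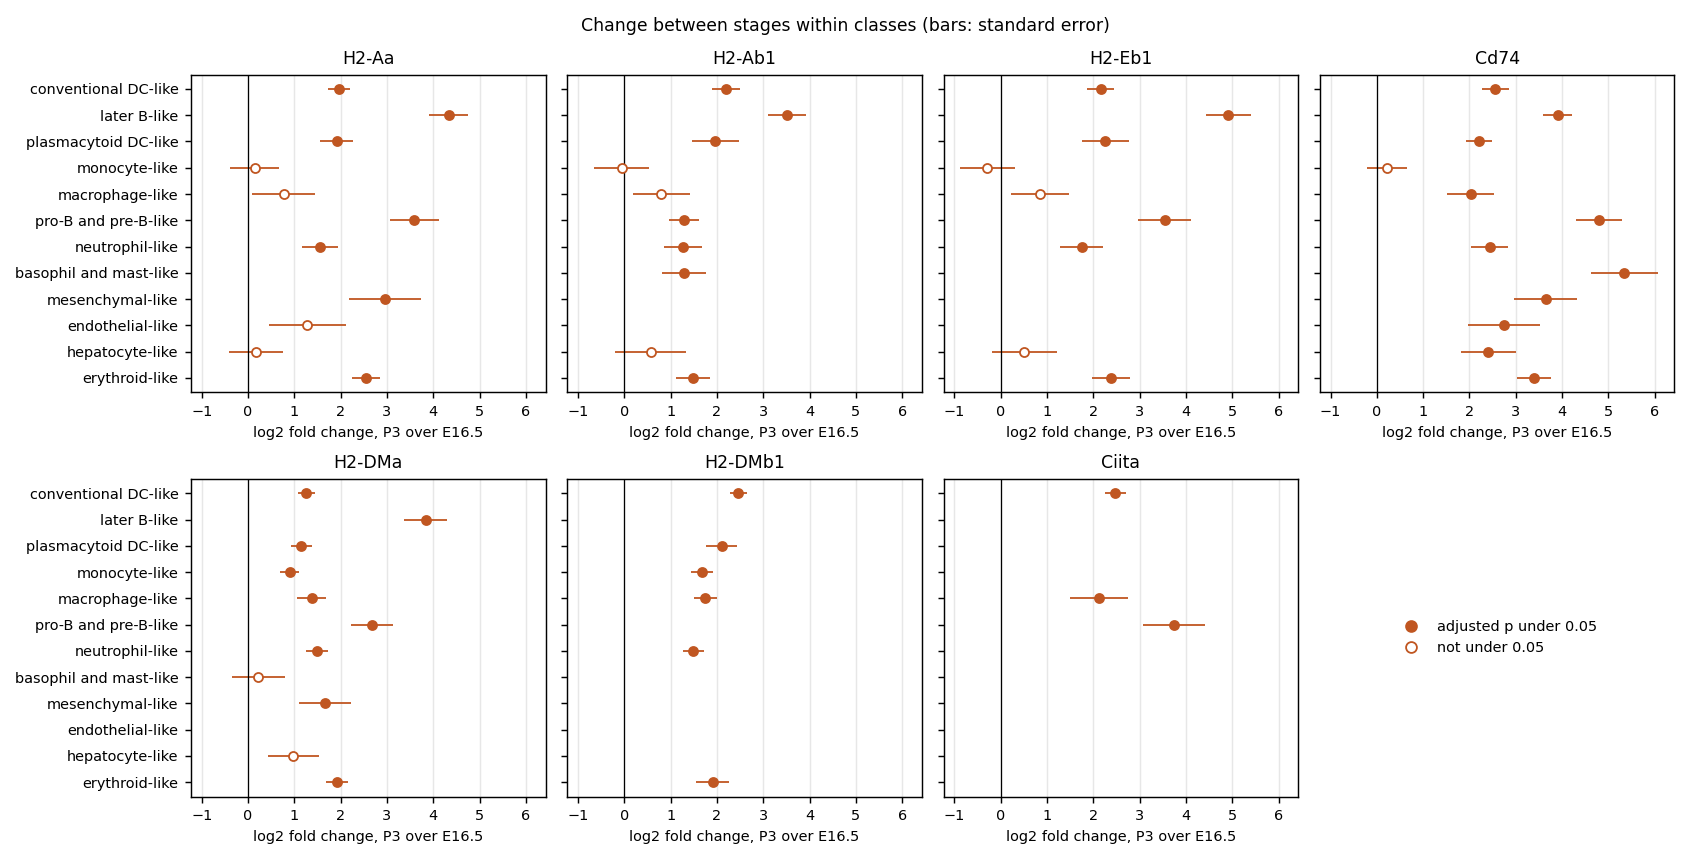
log2 fold change of each member between P3 and E16.5 by class, with standard errors (bars); filled points have an adjusted p under 0.05 and open points do not, and classes below the filter on low counts have no point. Later B-like cells have the largest H2-Eb1 change (4.91), and the monocyte-like points of Cd74 and the 3 chains lie near 0.

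Summed over all kept cells of a library, all 7 members were higher at P3, where 52.9% of all genes were called and 27.0% were higher. Cd74 went from 14.0 to 34.2 CPM at E16.5 to 366 to 565 CPM at P3, a log2 change of 3.71 (SE 0.28, adjusted p = 6.82e-06). The change was 3.26 for Ciita, 2.90 for H2-Eb1, 2.62 for H2-Aa, 2.51 for H2-Ab1, 2.35 for H2-DMb1 and 1.60 for H2-DMa. In such sums, more cells of a type and more RNA per cell cannot be told apart.

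Whether the change with stage differed between classes was tested by an interaction with library as a block, for 3 pairs of classes. Of the 21 tests of members, 13 were called, against 25.2% of all genes, 8 positive and 5 negative. Later B-like cells changed more than macrophage-like cells for 5 of 7 members (30.8% of all genes called), by 4.16 (SE 0.42) for H2-Eb1, 3.59 for H2-Aa, 2.67 for H2-Ab1, 2.41 for H2-DMa and 1.72 (SE 0.33) for Cd74. Without Jag1+/+ replicate 1 at E16.5 the difference was 2.54 for Cd74, 4.29 for H2-Aa and 3.42 for H2-Ab1, and without Jag1Ndr/Ndr replicate 1 that of H2-Eb1 was 5.65, all called. With doublets kept it was 5.91 for H2-Eb1, 5.60 for H2-Aa, 4.04 for H2-DMa and 3.58 for Cd74, all called. Conventional dendritic-like cells changed less than later B-like cells for the same 5 members (27.3% of all genes called), with differences of -2.81 (SE 0.36) for H2-Eb1, -2.62 for H2-DMa, -2.39 for H2-Aa, -1.38 for Cd74 and -1.32 for H2-Ab1. With Clec9a-led clusters only, these were -4.00, -3.08, -3.51, -2.57 and -2.48, and with doublets kept -6.53, -4.85, -6.25, -5.27 and -3.28, all called. Without Jag1Ndr/Ndr replicate 1 at E16.5 that of H2-Eb1 was -4.37. In the interaction tests these members passed the filter through the macrophage-like or conventional dendritic-like class at both stages, but the later B-like class held only 0 to 16 H2-Eb1 UMIs and 0 to 3 H2-DMa UMIs in an E16.5 library, so the sizes rest on few counts. Between conventional dendritic-like and macrophage-like cells the direction differed between settings, and the cause was not tested. As clustered here, the former changed more for 3 of 7 (17.1% of all genes called), namely H2-Eb1 (1.36, SE 0.34), H2-Ab1 (1.26, SE 0.35) and H2-DMb1 (0.71, SE 0.18). With doublets kept all 7 differences were called negative, with -0.84 for H2-Eb1, -0.93 for H2-Ab1, -0.52 for H2-DMb1 and -1.75 for Cd74. With Clec9a-led clusters only, the 3 differences were -0.017, -0.072 and -0.23 and none was called, while Cd74 (-0.83, adjusted p = 0.0114) and H2-DMa (-0.77, adjusted p = 0.00180) were called lower. With only libraries C and D at P3, those of H2-Eb1 (0.78) and H2-Ab1 (0.73) were no longer called. That of H2-Ab1 was also lost without library B (0.86) or without Jag1Ndr/Ndr replicate 1 at E16.5 (0.94). Calls were gained too: over the 3 pairs of classes, leaving out libraries lost 2 and gained 5. With libraries left out the difference here ran from 0.63 to 1.31 for H2-Aa and from 0.25 to 0.69 for Cd74.

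The question of genotype was tested at E16.5, where both Jag1Ndr/Ndr libraries were set against the 3 others. None of 54 pairs of member and class was called, where 0.000746% of all pairs (1 of 133993) were. Over all kept cells none of the 7 was called either, where 0.00% of all genes were. At an unadjusted p under 0.05, 3 of the 54 pairs passed in edgeR (1.71% of all pairs) and 1 in DESeq2 (0.751% of all pairs), which also called none, and over all kept cells none passed in either tool. In conventional dendritic-like cells the log2 differences, homozygous minus others, ran from -0.04 (SE 0.28) for H2-DMa to 0.44 (SE 0.33) for Cd74. In later B-like cells Cd74 differed by 0.36 (SE 0.36), and in macrophage-like cells by 0.61 (SE 0.71). Jag1Ndr/Ndr replicate 1 had the highest Cd74 of the 5 libraries in all of these classes and replicate 2 lay among or below the others. Without replicate 1 the Cd74 differences became -0.54 in conventional dendritic-like, -0.70 in later B-like and -0.82 in macrophage-like cells, none called. At an unadjusted p under 0.05, 17 of 59 pairs then passed in edgeR (2.11% of all pairs), and 18 of 67 (3.83% of all pairs) without replicate 2, none of them called. Each of these fits holds 1 homozygous library, which is assumed to vary like the other group. Without the filter on low counts 7 of 97 pairs were called, 4 higher and 3 lower, where 0.161% of all pairs were. The Jag1Ndr/Ndr libraries also differed in sex-linked genes, with 27 Xist and 5050 Ddx3y UMIs in replicate 1 and 113272 and 8 in replicate 2. Of the others, only Jag1Ndr/+ replicate 1 had more Xist than Ddx3y. With Xist status as a covariate none of the 54 pairs was called, where 2 of 133993 pairs over all genes were. On simulated data of this design, 28.1% of genes changed by 1 log2 unit were recovered in conventional dendritic-like cells. The share was 12.4% in later B-like and 49.5% in macrophage-like cells, so changes of that size could be missed. Each share rests on the 5685 to 10967 genes of 1 class, whereas the reported test adjusted over 133993 pairs. Recovery of the members at their own spread, such as the SE of 0.71 for Cd74 in macrophage-like cells, was not tested.

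The lowest unadjusted p-values were in classes with few UMIs of these genes. Cd74 in mesenchymal-like cells was at 1.80 and 1.15 CPM in the homozygous libraries and at 37.6, 1.63 and 9.85 CPM in Jag1+/+ replicate 1, Jag1Ndr/+ replicate 1 and the shared library, a log2 difference of -3.32 (SE 1.06) that did not pass. The values overlapped only through the heterozygous library. H2-Aa in the same class (-4.17) and Cd74 in stem and progenitor-like cells (-2.03) did not pass either. These 3 pairs were the ones called lower without the filter on low counts, with adjusted p = 3.75e-05, 0.00581 and 0.0109 by edgeR. Those called higher there were H2-Aa (1.07) and H2-Ab1 (1.24) in macrophage-like cells and Cd74 (1.67) and H2-Ab1 (2.18) in endothelial-like cells, so these calls depend on the filter.

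At P3 only library C had a homozygous label alone and only library D a heterozygous label alone, so there was no test. Library C is the rest of a matrix of 35072 barcodes, of which 19927 were also in Jag1+/+ replicate 1. Its genotype thus rests on the label of a matrix that held another library too. Cd74 in conventional dendritic-like cells was 17294 CPM (exact 95% Poisson interval 17041 to 17550) in C and 9403 CPM (9185 to 9625) in D. H2-Ab1 stood the other way, at 4233 CPM (4109 to 4361) in C and 6005 CPM (5830 to 6183) in D. H2-Eb1 was at 3753 CPM (3636 to 3874) and 3657 CPM (3522 to 3797), with overlapping intervals. In macrophage-like cells Cd74 was at 283 CPM (267 to 300.1) in C and 113 CPM (101 to 125) in D. The intervals cover counting error only, and libraries A and B lay at 15444 and 16036 CPM for Cd74 in the conventional dendritic-like class, close to C.

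**Figure D5:**
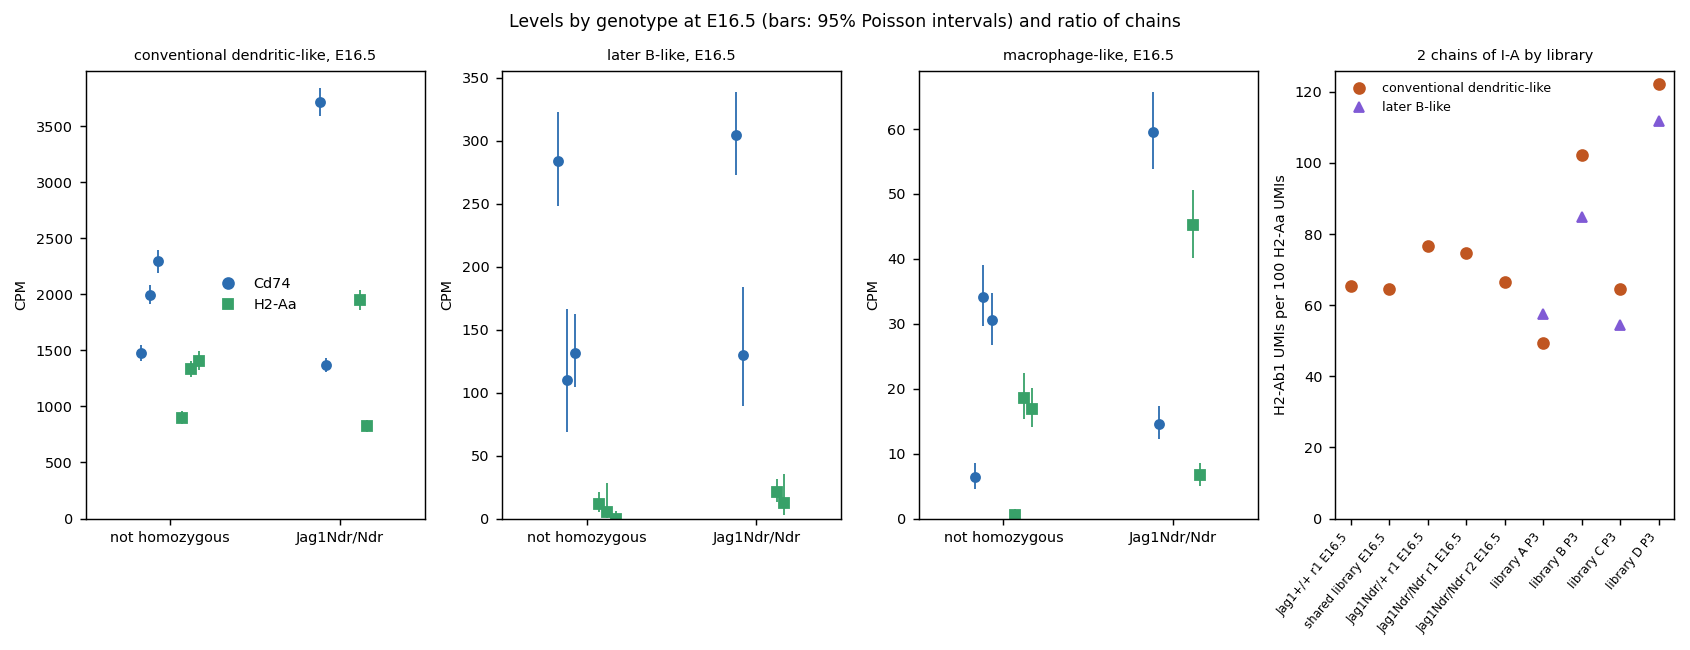
Left 3 panels: CPM of Cd74 (circles) and H2-Aa (squares) at E16.5 in libraries that are not homozygous (3) and Jag1Ndr/Ndr libraries (2), with exact 95% Poisson intervals as bars. Right panel: H2-Ab1 UMIs per 100 H2-Aa UMIs per library, in conventional dendritic-like cells at both stages and later B-like cells at P3; libraries B and D lie above A and C in both classes.

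The proportion of the I-A chains varied between P3 libraries. In conventional dendritic-like cells the E16.5 libraries had 64.4 to 76.6 H2-Ab1 UMIs per 100 H2-Aa UMIs. At P3 libraries A, B, C and D had 49.4, 102, 64.7 and 122. In later B-like cells they had 57.6, 84.9, 54.5 and 112, so libraries B and D were above A and C in both classes, while the order of A and C differed between them. The classes come from the same droplets and share a library's depth and preparation. Plasmacytoid dendritic-like cells, with only 39 to 136 H2-Aa UMIs per library, had 23.1, 61.9, 27.2 and 78.7. Between classes, H2-Aa per 100 Cd74 UMIs was 60.9 in conventional dendritic-like and 4.55 in later B-like cells at E16.5, and 37.8 and 8.84 at P3 (medians). The later B-like value at E16.5 rests on very few H2-Aa UMIs. In that class 42 to 174 cells per library had 0 to 21.0 CPM of H2-Aa, and at most 8.05% of cells had a UMI of it. Its change with stage is therefore not well measured. The editor's H2-DMb1 per 100 H2-DMa UMIs in conventional dendritic-like cells was 38.1 to 46.6 in E16.5 libraries and 87.1 to 108 in P3 libraries, without overlap.

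Companion genes of the pathway were taken from fixed lists, whose counts stand beside the 41.8% of all pairs called between stages, 20.9% higher and 20.9% lower. Of the editing genes and paralogs (3 tested), 13 of 18 pairs with a class were called between stages and all 13 were higher at P3. H2-DMb2 rose by 3.78 (SE 0.41) in later B-like cells, from 0 to 8.67 CPM at E16.5 to 71.2 to 118 CPM at P3. H2-Oa, the alpha chain of the H2-DM inhibitor H2-O, rose by 3.11 (SE 0.29) there, from 3.72 to 8.13 CPM to 56.5 to 97.1 CPM. In later B-like cells the filter asked for 9.43 CPM, so both entered the test through the P3 libraries. Its partner H2-Ob was at 15.6 to 45.0 CPM and 37.8 to 64.1 CPM in later B-like cells, a scaled log2 change of -0.05 (SE 0.22, adjusted p = 0.886 by edgeR) that did not pass. In conventional dendritic-like cells H2-Oa (1.40), H2-Ob (1.72) and H2-DMb2 (1.48) all rose. H2-Eb2 was too low to test within classes.

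Of the endosomal proteases, 70 of 110 pairs were called, 49 higher and 21 lower at P3. Ctss, the cathepsin that cleaves the invariant chain in dendritic and B cells, rose by 1.25 (SE 0.17) in conventional dendritic-like cells and by 1.40 (SE 0.22) in later B-like cells, and Ctsh, another cathepsin, by 2.63 (SE 0.32) in the latter. The promoter-binding complex had 30 of 88 pairs called, 10 higher and 20 lower, a share below that of all pairs. Its subunit Rfx5 rose by 0.95 (SE 0.33, adjusted p = 0.0249) in later B-like cells. There Rfx5 had a median of 7.29 CPM at E16.5, below the 9.43 CPM that the filter asked for, and 16.2 to 27.8 CPM at P3. Ctsh had a mean of 7.33 CPM at E16.5 in that class. Both genes thus entered the later B-like test only through the P3 libraries, which all but fixes their direction. Regulators of Ciita had 76 of 125 pairs called, 63 higher and 13 lower. Summed over all kept cells, 7 of these 11 genes were called, 6 higher and 1 lower, where 52.9% of all genes were called, and they included Spi1 (1.68) and Irf8 (1.45), transcription factors of myeloid and dendritic cells.

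Turnover and co-stimulation genes had 28 of 46 pairs called, 11 higher and 17 lower. March8, a membrane ubiquitin ligase, fell by 6.04 (SE 0.29) in later B-like cells, from 65.6 to 165 CPM to 1.22 to 3.26 CPM. It was at 64.9 to 175 CPM in erythroid-like cells at E16.5 and 48.0 to 131 CPM at P3, beside the fall of the erythroid marker sum in later B-like cells given above, and that sum's part in the March8 change was not tested. Of the CD74 partners, 19 of 41 pairs were called, 4 higher and 15 lower, a share near that of all pairs, and Cxcr4, a chemokine receptor, fell by 2.75 (SE 0.28) in later B-like cells. No companion pair was called between genotypes at E16.5.

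The genes most like the members were ranked by Pearson correlation over class means, as a description without a test, since all classes come from the same libraries and small classes have few UMIs. Over 14 classes at E16.5 these were Gm33973 (0.97), Olfr433 (0.95), Ildr1 (0.95) and H2-DMb2 (0.94). Their highest class means were 0.811, 13.6, 4.91 and 17.8 CPM, so they rest on few molecules. Over 15 classes at P3 they were Btla (0.93), an inhibitory receptor, Phf11b (0.89), Hps5 (0.88) and Irf5 (0.88), with H2-DMb2 (0.87) and Irf8 (0.86) among the leading 10.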

How the data were processed

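Single-cell RNA was counted as UMIs per gene and barcode by the authors, and these deposited counts were used as they stand. The submitters' processing notes name Cell Ranger 2.1.1, R 4.1.2, Seurat and mm10, whereas per the file headers the matrices were written by 10x software 3.0.2 (P3) and 3.1.0 (E16.5). A barcode was used from 1000 UMIs upwards if no more than 15% of them were mitochondrial, and barcodes called by Scrublet as doublets (9.86% to 13.4% in E16.5 libraries, 4.11% to 9.50% in P3 libraries) were removed. The median UMI count per passing barcode was 5325 to 9256 in E16.5 libraries and 2961 to 6235 in P3 libraries.

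Cells were clustered with scanpy 1.11.5 (2000 variable genes, 30 components, 15 neighbours, Leiden resolution 1) without class II, sex-linked and mitochondrial genes, and B and myeloid cells were clustered again by a rule set after their leading genes had been seen. Counts were summed per library and class (at least 20 cells) and tested with edgeR 4.0.16 (TMM factors, filterByExpr, quasi-likelihood test, Benjamini-Hochberg adjustment over all pairs of class and gene, threshold 0.05) in R 4.3.3. The interaction of class and stage had library as a block. DESeq2 1.42.0, RLE factors, no filter, other UMI minimum, resolution and doublet settings, thinning to 2000 in place of 1000 UMIs and leaving out libraries were the alternatives. With doublets kept, B and myeloid cells were clustered and named again. The filter keeps a gene that reaches about 10 UMIs in as many libraries as the smaller group holds, so a gene high at 1 stage can enter through that stage alone. The test code was tested on simulated data. Erythroid-like cells gave the background.

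Named genes were the 7 members in every class, and, of fixed companion lists, those called in classes with at least 100 CPM of Cd74, up to 10 per comparison by size of change, with the levels of a few set paralogs and proteases. The members and lists were chosen with earlier results of these data known. Gene positions and promoters came from RefSeq on GRCm38.p6, and 99.6% of gene names matched at each stage. Depth and class size limit rare transcripts, and Poisson and binomial intervals cover counting error only.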

Additional observations from a re-analysis of the deposited data

Results flagged for a closer look

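In 4 of 98 groups of libraries tested, 1 library stood far from the others, and chance gives about 1 in 20. H2-Eb1 in later B-like cells at E16.5 was at 14.6 CPM in Jag1Ndr/Ndr replicate 1 and at 0 to 3.13 CPM in the others. Ciita in macrophage-like cells was at 2.40 CPM in the same library and at 0 to 0.665 CPM in the others. Ciita in monocyte-like cells was at 2.64 CPM in the shared library and at 0.652 to 1.22 CPM in the others. Cd74 in macrophage-like cells at P3 was at 283 CPM in library C and at 106 to 129 CPM in the others.

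The change between stages differed between classes by the interaction test for 13 values. For later B-like minus macrophage-like cells these were 2.41 for H2-DMa, 2.67 for H2-Ab1, 3.59 for H2-Aa, 4.16 for H2-Eb1 and 1.72 for Cd74. For conventional dendritic-like minus macrophage-like cells they were 0.71 for H2-DMb1, 1.26 for H2-Ab1 and 1.36 for H2-Eb1. With doublets kept these were called negative (-0.52, -0.93 and -0.84), and with Clec9a-led clusters only they were not called (-0.23, -0.072 and -0.017). For conventional dendritic-like minus later B-like cells they were -2.62 for H2-DMa, -1.32 for H2-Ab1, -2.39 for H2-Aa, -2.81 for H2-Eb1 and -1.38 for Cd74.

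Clusters that could not be named, and so entered no comparison within or between classes, also held Cd74. Their cells were part of the sums over all kept cells. Unnamed cells of the B lineage had a median of 4.40 CPM at E16.5 and 1345 CPM at P3, and unnamed myeloid cells 31.5 and 674 CPM, above the erythroid-like levels of the same stage.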

How the results depend on the processing

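The count of members called between stages within classes was 49 to 54 when each library was left out in turn, and 42 to 71 over the other settings. It was 49 of 65 pairs without E16.5 Jag1+/+ replicate 1 (47153 of 125861 over all genes) and 54 of 72 without library C (48101 of 132035). It was 42 of 57 with doublets kept (51469 of 118137) and 71 of 97 without the filter on low counts (58513 of 212755). With doublets kept, the conventional dendritic-like class was tested only after its minimum was lowered to 10 cells, and the call was then lost for H2-Aa (0.36), H2-Ab1 (0.54) and H2-Eb1 (0.49). Over all kept cells it was 7 under every setting run. The genotype count was 0 under every setting run except without the filter on low counts, where 7 of 97 pairs were called (4 higher, 3 lower; 0.161% of all pairs). The interaction count was 12 to 16 of 21 with libraries left out. It was 12 without library B (6537 of 29913 over all genes) and 16 without E16.5 Jag1+/+ replicate 1 (6507 of 29503). With doublets kept it was 21 of 21, 7 positive and 14 negative (6141 of 30397 over all genes). The class of conventional dendritic-like cells at E16.5 then also changed in size to 18 to 37 cells per library. With the replicate block the counts were 0 and 0 for genotype and 52 and 7 for stage. Deviations of same-numbered libraries had correlations of -0.14 to 0.21. For genotype these mirror those of differently numbered libraries (0.21 and -0.21 for Jag1+/+ replicate 1), since only 2 libraries were homozygous. Whether same-numbered libraries share a batch cannot be told from this.

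Signs turned under the settings below, and the cause was not tested. In monocyte-like cells the stage change of Cd74 became -0.11 with the replicate block and -0.084 with libraries C and D only, and that of H2-Aa -0.28 with the block and -0.71 at Leiden resolution 0.5. H2-Ab1 became 0.035 with DESeq2, 0.87 with doublets kept, 0.24 at resolution 0.5 and 0.27 with C and D only, and H2-Eb1 0.67 with doublets kept and 0.011 with C and D only. Leaving out libraries gave -0.47 to 0.57 for Cd74, -0.43 to 0.56 for H2-Aa, -0.60 to 0.39 for H2-Ab1 and -0.74 to 0.18 for H2-Eb1. For conventional dendritic-like minus macrophage-like cells, doublets kept gave -1.75 for Cd74, -1.04 for H2-Aa, -0.93 for H2-Ab1, -0.84 for H2-Eb1, -0.52 for H2-DMb1 and -1.27 for Ciita, all called, while those of H2-Ab1, H2-Eb1 and H2-DMb1 were called positive in the reported test. Clec9a-led clusters gave -0.83, -0.29, -0.072, -0.017, -0.23 and -0.69 for the same genes, and C and D only gave -0.040 for Ciita, which ran from -0.51 to 0.66 with libraries left out. H2-DMb1 between conventional dendritic-like and later B-like cells became 0.037 with at least 2000 UMIs and 0.080 at resolution 0.5, and ran from -0.41 to 0.15 with libraries left out. The genotype difference of Cd74 with libraries left out ran from -0.54 to 1.03 in conventional dendritic-like, -0.70 to 0.89 in later B-like and -0.82 to 1.35 in macrophage-like cells, and from -0.42 to 1.00 over all kept cells. Xist status as a covariate was not run for stage.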
